A study of Sus scrofa domesticus with 4 samples.

Results

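Selenoprotein P and the main antioxidant enzymes were followed in porcine anterior pituitary cells cultured with or without adiponectin, a hormone secreted by adipose tissue. The set was defined as every probe whose RefSeq accession belongs to SELENOP, GPX1, GPX4, SOD1, SOD2, CAT, PRDX6, TXN or HMOX1, and it holds 39 of the 43603 probes of the array. These probes covered 7 of the 9 genes: 10 for SELENOP, 9 for CAT, 6 for GPX1, 6 for PRDX6, 3 for GPX4, 3 for HMOX1 and 2 for TXN. By accession 0 probes matched SOD1 or SOD2, the cytosolic and mitochondrial superoxide dismutases, which are therefore not analysed here. Of the 39 probes, 36 could be fitted, and the remaining 3 (2 of GPX1 and 1 of TXN) lay on spots of uneven local background and had a usable value on at most 1 array. The genes were chosen with the treated over control ratios of these arrays in view, so those ratios are a description and no member is tested on them.

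The cells came from mature gilts (Large White x Polish Landrace, 7 to 8 months old, 120 to 130 kg) in the mid-luteal phase, days 10 to 12 of the oestrous cycle, although 1 label gives those days as days of pregnancy. Dispersed cells were precultured for 48 h with horse and foetal calf serum and then kept for 24 h in serum-free medium with bacitracin, which both groups shared. Treated cultures received recombinant human adiponectin at 10 µg/ml and control cultures none. RNA of a treated and of a control culture was hybridised together on each of 4 two-colour arrays, and all values below have n = 4 arrays unless stated. By the channel labels, the treated RNA carried the red dye Cy5 on arrays 1 and 3, and the green dye Cy3 on the other two. The labelling protocol instead reads as treated RNA in Cy5 throughout, which would turn the sign on arrays 2 and 4. Pituitaries were harvested from 4 gilts by the protocol, but which gilt is on which array is not labelled, so the errors measure the spread between these arrays.

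Antioxidant enzymes remove reactive oxygen species in steps. Superoxide dismutases turn superoxide into hydrogen peroxide, which catalase, glutathione peroxidases and peroxiredoxins reduce further. Selenoprotein P is a secreted protein rich in selenocysteine that carries selenium between tissues, and the selenium it delivers is needed to make glutathione peroxidases. In a gland of several hormone-secreting cell types and supporting cells, a bulk ratio cannot tell fewer cells of a type from less RNA per cell.

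The hormone genes GH1, PRL, POMC, LHB, FSHB and TSHB, 6 of 7 hormone markers, were well above background in both channels of all 4 arrays. Markers of other cells were also present: SOX2 and ANXA1, used here for folliculostellate cells, CD14 and AIF1 for macrophages, DCN for fibroblasts and PECAM1 and CDH5 for endothelium were well above background in both channels on 4 arrays. Between 25089 and 29734 probes per array and channel were well above background and 0 spots were saturated. Treated over control ratios correlated at 0.26 and 0.57 between arrays of the same dye orientation and at -0.48 to -0.43 between arrays of opposite orientation, across probes, which are not independent. Read by the channel labels, a ratio on 1 array is therefore not free of dye. Only the fitted ratio, from a limma model that holds terms for dye and treatment, is then corrected for it. If treated RNA was in Cy5 on every array, as the protocol reads, these correlations cannot tell dye from treatment.

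Across the array, 0 of 25912 fitted probes had a treatment ratio with an adjusted p under 0.05 in the limma model (Benjamini-Hochberg over all probes, smallest adjusted p = 0.9999, percent called 0%), and 717 (2.77%) had an unadjusted p under 0.05. Among the members 0 of 36 and 2 of 36 probes did so, and since this contrast was in view when the genes were chosen, nothing is read from these counts. The median fitted log2 ratio was 0.02 over the 36 member probes, from -0.10 to 0.43, with 19 above and 17 below 0. On all 4 arrays 1 of 33 members with 4 values was above 0 (SELENOP probe A_72_P560239, beside 3.01% of all probes) and 0 of 33 were below 0 (beside 2.94%). The median was 0.001 over all fitted probes, with 13146 above and 12766 below. Taking the brightest fitted probe of each gene, 3 of 7 members lay above 0 (median -0.01), beside 1049 of 1956 named genes (median 0.006).

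**Figure D1:**
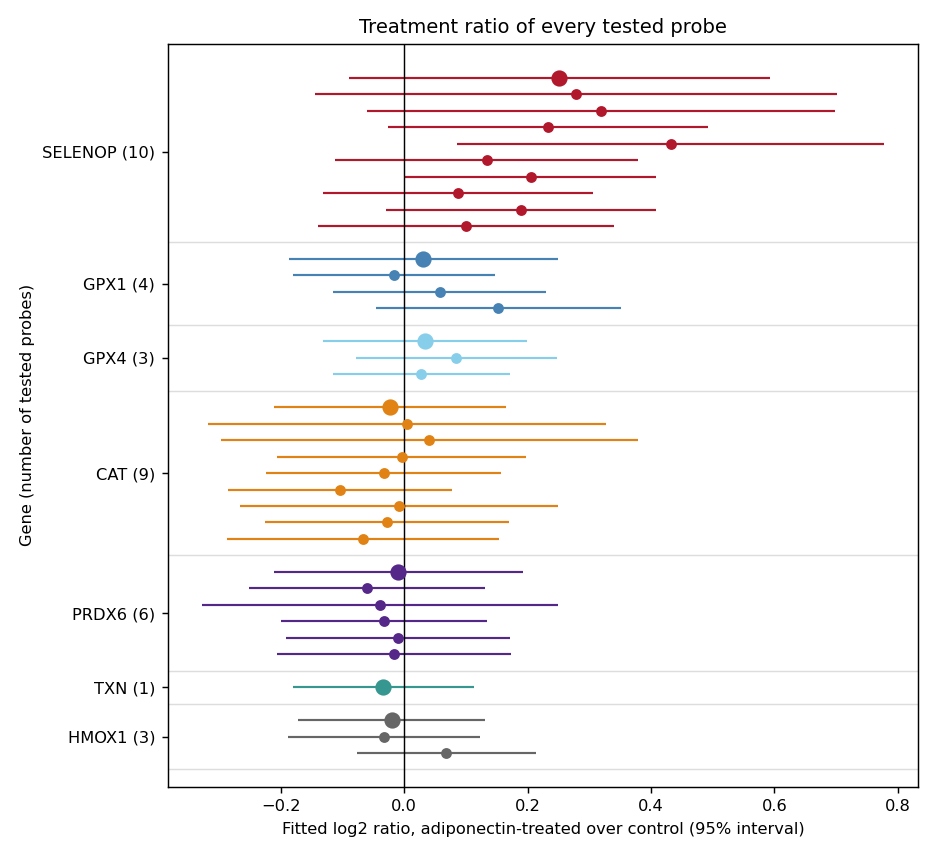
Fitted log2 ratio of adiponectin-treated over control cells (x axis) for the 36 fitted probes, grouped by gene (y axis); points are fitted values from 4 arrays (3 arrays for 2 probes of GPX1 and 1 of PRDX6), bars are 95% intervals, and the larger point is the brightest probe of the gene. The 10 SELENOP probes lie between 0.09 and 0.43, and the probes of the other 6 genes between -0.10 and 0.15.

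SELENOP, the selenium carrier, had the highest fitted ratios of the set. Its brightest probe, A_72_P604583, gave normalised signals in treated cells of 898, 2048, 3646 and 2756 units on arrays 1 to 4. The control signals of the same probe were 1053, 964, 3364 and 2695 units. On array 2 the treated signal was thus far above the control signal, and on the other arrays both were closer. The log2 ratios were -0.23, 1.09, 0.12 and 0.03, and the fitted ratio was 0.25 ± 0.15 (SE, 95% interval -0.09 to 0.59), a 1.19-fold difference.

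All 10 SELENOP probes had their highest ratio on array 2, but they differed on the other arrays. A_72_P655519 (-0.57, 1.05, -0.33 and 0.38 on arrays 1 to 4) and A_72_P587831 (-0.34, 1.06, -0.44 and 0.47) followed the split of the dyes. Averaged over the 10 probes, the log2 ratio was -0.08 on array 1, 0.90 on array 2, 0.02 on array 3 and 0.05 on array 4. Array 2 stood apart: every probe was above 0 there, from 0.56 to 1.19, whereas 4, 5 and 5 of 10 were above 0 on arrays 1, 3 and 4. The mean on array 2 corresponds to a 1.87-fold higher level in the treated channel. Among 471 named genes with 3 or more fitted probes, the SELENOP mean ranked 2 from the top on array 2, and 349, 145 and 189 on arrays 1, 3 and 4. As the genes were chosen with these ratios in view, these ranks and the ranks of ratios given below are a description. Arrays 2 and 4 have the same dye orientation and still differed by 0.85 in the mean over the SELENOP probes, with all 10 differences above 0 (0.50 to 1.36), while arrays 1 and 3 differed by -0.09.

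The fitted ratios of the 10 SELENOP probes were all above 0, from 0.09 to 0.43, with a mean of 0.22 (SD over probes 0.11), rank 2 of the 471 genes. Probes of 1 gene share the RNA of each array and are not replicates. Their spread was wider than usual for a gene: the median SD over the probes of those 471 genes was 0.04. The highest single probe, A_72_P691858, had 0.43 ± 0.15 (SE, 95% interval 0.09 to 0.78), with 0.58, 0.93, 0.39 and -0.18 on arrays 1 to 4, so it was above 0 on array 1 as well. Without array 2, the mean over probes was 0.009, with 5 of 10 probes above and 5 below 0, and the brightest probe had -0.01. Without array 1, 3 or 4 the mean was 0.25, 0.20 and 0.44, with 10 of 10 probes above 0 each time. The positive SELENOP ratio thus rested on array 2.

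**Figure D2:**
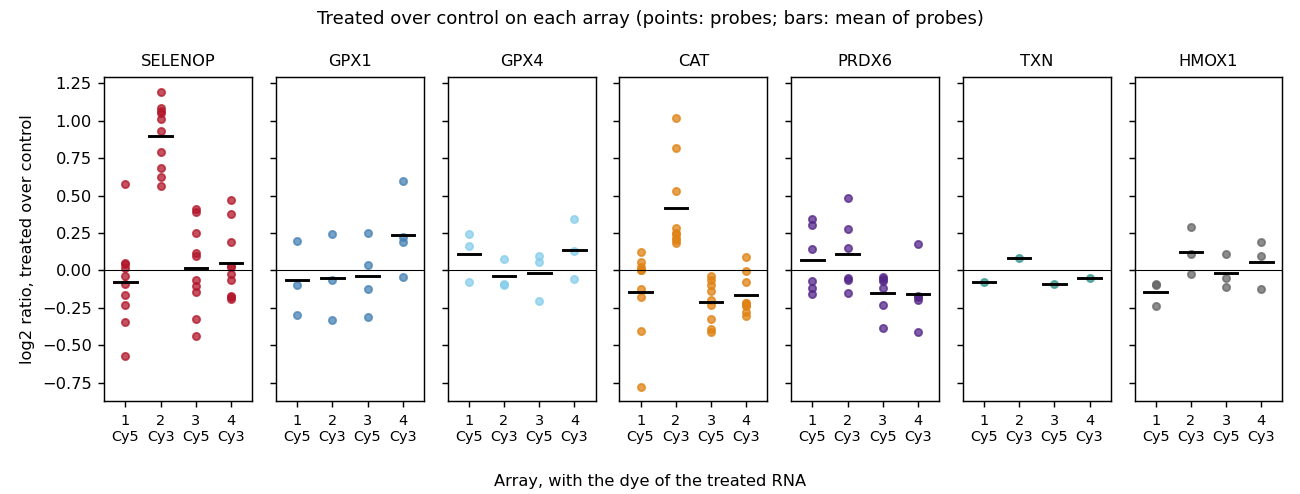
Log2 ratio of treated over control cells (y axis) on each of the 4 arrays (x axis, with the dye of the treated RNA), 1 panel per gene; points are probes and black bars their mean. The SELENOP probes lie at 0.56 or above on array 2 and between -0.57 and 0.58 on the others, and all 9 CAT probes lie above 0 on array 2, with means of 0.42 there and -0.14, -0.21 and -0.16 on arrays 1, 3 and 4.

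On array 2 the means of the marker lists also lay away from 0, before any correction for dye. The mean log2 ratio there was -0.23 for the 6 hormone genes, 0.16 for the 2 fitted of 7 macrophage markers, 0.20 for the 2 of 5 endothelial markers, 0.18 for DCN, the 1 of 6 fibroblast markers, and 0.04 for the 2 of 5 folliculostellate markers. On array 4, of the same dye orientation, these means were -0.005, 0.24, 0.05, 0.13 and -0.14. The macrophage and DCN means were thus above 0 on both arrays, whereas the SELENOP mean was high on array 2 alone. The endothelial mean was also highest on array 2, with -0.25 and 0.04 on arrays 1 and 3. Its 2 genes differed: CDH5 was highest on array 2 (0.34) and PECAM1 on array 4 (0.12). On arrays 1 and 3, of the other orientation, the macrophage mean was -0.19 and -0.27, and DCN had -0.005 and -0.28. The macrophage mean thus followed the split of the dyes, while DCN was near 0 on array 1. At the brightest probes the fitted values, corrected for dye, were -0.02 for the macrophage mean and 0.006 for DCN. All 4 fitted DCN probes were above 0, from 0.006 to 0.19, with a mean of 0.10. Within the hormone list, TSHB went against the mean on array 2, with 0.24. The part of cell composition in the SELENOP ratio of array 2 was not tested.

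Catalase, which breaks down hydrogen peroxide in peroxisomes, was the other gene whose probes moved together on array 2. All 9 CAT probes were above 0 there (0.18 to 1.02, mean 0.42, rank 6 of the 471 genes from the top), beside means of -0.14, -0.21 and -0.16 on arrays 1, 3 and 4. The brightest probe, A_72_P632481, gave treated signals of 1668, 1753, 2785 and 2166 units and control signals of 1602, 1547, 2985 and 2544 units. Within arrays, the treated value was higher on arrays 1 and 2 and lower on arrays 3 and 4. Its fitted ratio was -0.02 ± 0.08 (SE, 95% interval -0.21 to 0.16). Over the 9 probes the fitted ratios ran from -0.10 to 0.04, with 2 above and 7 below 0 and a mean of -0.02. Leaving out array 2 moved the mean to -0.17 with 9 of 9 probes below 0, and leaving out array 4 moved it to 0.12 with 8 of 9 above 0, so the sign of CAT depended on which arrays were used.

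The CAT probes split in size on array 2. The probes A_72_P223317, A_72_P576934 and A_72_P579607 had ratios of 1.02, 0.82 and 0.53, and the other 6 lay between 0.18 and 0.28. The same 3 probes had 0.09, -0.22 and -0.23 on array 4, of the same dye orientation, and -0.78, -0.40 and -0.13 on array 1, of the other. Their fitted ratios were 0.004, 0.04 and -0.008.

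The glutathione peroxidases are selenoenzymes that use glutathione as reductant: GPX1 is the abundant cytosolic form, and GPX4 reduces lipid hydroperoxides in membranes. The brightest fitted GPX1 probe, A_72_P088441, had a value on 3 arrays, with treated signals of 52602, 114338 and 90178 units and control signals of 66308, 96022 and 93176 units on arrays 2, 3 and 4. Treated RNA was thus lower on arrays 2 and 4 and higher on array 3, which is the split of the dyes. The fitted ratio was 0.03 ± 0.09 (SE, n = 3). The 4 fitted GPX1 probes ran from -0.02 to 0.15 (mean 0.06), with 3 above 0. With spots of uneven local background kept, all 6 GPX1 probes had a value, with fitted ratios from -0.01 to 0.09, 5 of them above 0.

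All 3 GPX4 probes had a fitted ratio above 0. The brightest probe, A_72_P388853, gave treated signals of 23866, 21682, 37207 and 37351 units and control signals of 25198, 20604, 42911 and 29390 units. Treated RNA was lower on arrays 1 and 3 and higher on arrays 2 and 4, which is the split of the dyes. The fitted ratios of the 3 probes were 0.03, 0.08 and 0.03, and with 1 array left out their mean ran from 0.005 to 0.09.

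PRDX6, a peroxiredoxin that also reduces phospholipid hydroperoxides, had fitted ratios below 0 for 6 of 6 probes, but small ones, from -0.06 to -0.01 (mean -0.03). Its brightest probe, A_72_P575489, had no value on array 4 and gave treated signals of 4850, 6260 and 10745 units against control signals of 4402, 6553 and 11101 units on arrays 1, 2 and 3. Within arrays, the treated value was higher on array 1 and lower on arrays 2 and 3, and the fitted ratio was -0.01 ± 0.09 (SE, n = 3). On arrays 1 and 2 the 6 probes were split, 3 above and 3 below 0, while on array 3 all 6 and on array 4 all but 1 of 5 were below. Without array 2 the mean was -0.11 and without array 4 it was 0.03.

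TXN, thioredoxin, passes electrons to peroxiredoxins and was measured by 1 fitted probe, A_72_P546866. Its second probe, A_72_P177678, could be fitted only with spots of uneven background kept, and then had 0.03. Treated signals were 30552, 34471, 37154 and 32806 units and control signals 32191, 32616, 39495 and 34032 units. Each pair was close, with log2 ratios of -0.08, 0.08, -0.09 and -0.05. The fitted ratio of A_72_P546866 was -0.03 ± 0.06 (SE, 95% interval -0.18 to 0.11).

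HMOX1, heme oxygenase, is induced by oxidative stress and heme through the transcription factor NRF2. Its brightest probe, A_72_P078091, gave treated signals of 5553, 6489, 6376 and 5947 units and control signals of 6561, 6021, 6592 and 5552 units. The treated value was higher on arrays 2 and 4 only, again the split of the dyes. The fitted ratio was -0.02 ± 0.07 (SE, 95% interval -0.17 to 0.13). The other probes had -0.03 and 0.07.

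The direction of the small ratios depended on how the arrays were centred. With the median of each array set to 0 in place of the intensity-dependent loess, the brightest probes of CAT, TXN and HMOX1 had 0.04, 0.06 and 0.05, so their sign turned. For PRDX6 the mean over probes was then 0.03, with 5 of 6 probes above 0 and the brightest, measured on 3 arrays, at -0.03. The brightest SELENOP probe had 0.31. The median over all probes was 0.03 under that centring and 0.08 for the brightest 10% of probes, against 0.001 and -0.002 with loess. With the background model fitted on all spots, SELENOP had 0.09 at its brightest probe and a mean of 0.04 over probes, 6 of 10 above 0.

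The dye term of the same fit, the mean red over green ratio, is another contrast than the one in view when the genes were chosen, and it becomes the treatment ratio if treated RNA was in Cy5 on every array. It passed an adjusted p of 0.05 (limma) for 1608 of 25912 probes (6.21%) and for 3 of 36 member probes (8.33%), close to that background. All 3 were lower in red, beside 4.29% of all probes, and 0 were higher, beside 1.92%. They were A_72_P587831 of SELENOP at -0.58 (adjusted p = 0.018 by limma), A_72_P655519 of SELENOP at -0.58 (adjusted p = 0.0237 by limma) and A_72_P684140 of GPX1 at -0.36 (adjusted p = 0.0336 by limma). Of the 10 SELENOP probes 9 had a dye term below 0, with a mean of -0.25 over the 10, and those not called ran from -0.31 to 0.05. The 4 GPX1 probes were spread from -0.36 to 0.22. Array 2 enters both terms, and its SELENOP values lower the dye term as they raise the treatment term.

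Read as the labelling protocol has it, in a fit without a dye term, 2331 of 25912 probes (9%; 3.03% higher and 5.97% lower) passed an adjusted p of 0.05 by limma, and 4 of 36 member probes (11.1%, all lower) did, the 3 above and A_72_P223317 of CAT at -0.55 (adjusted p = 0.0396 by limma). The brightest probes then had -0.31 for SELENOP, 0.21 for GPX1, -0.18 for GPX4, 0.003 for CAT, 0.05 for PRDX6, -0.05 for TXN and -0.12 for HMOX1. The mean over the SELENOP probes was -0.25, with 9 of 10 below 0. SELENOP thus had opposite signs under the channel labels and under the protocol, and in both readings array 2 had the mean farthest from 0.

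**Figure D3:**
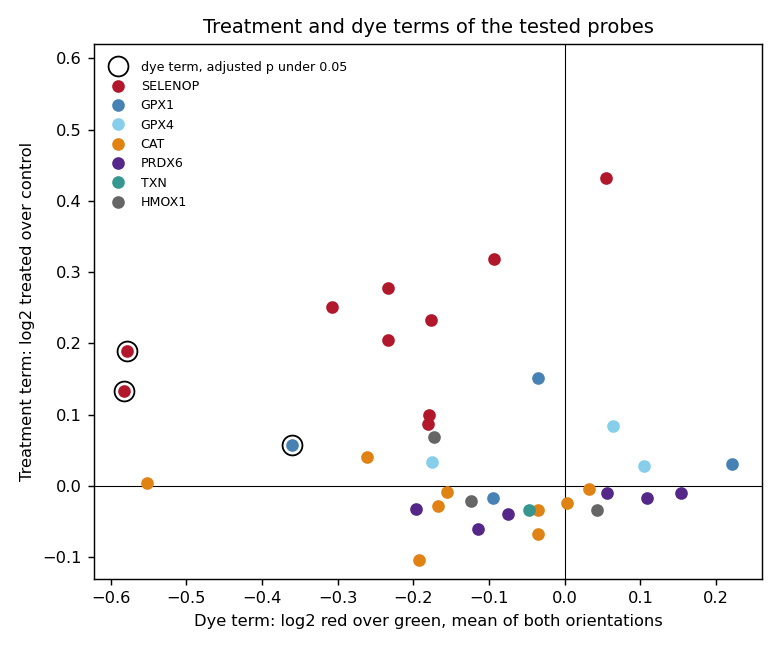
Fitted dye term (x axis, log2 red over green) against fitted treatment term (y axis, log2 treated over control) for the 36 fitted probes, coloured by gene; rings mark the 3 probes whose dye term had an adjusted p under 0.05. SELENOP probes spread from -0.58 to 0.05 along the dye axis, and CAT, PRDX6, TXN and HMOX1 probes lie between -0.10 and 0.07 on the treatment axis.

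The level of SELENOP also differed between arrays, by a range wider than its largest treated over control mean, 1.87-fold on array 2. Levels here are the mean log2 signal of both channels after quantile scaling between arrays, so dye and treatment are averaged, and each probe is set against its own mean over the 4 arrays. Over the 10 SELENOP probes the level was -0.64, -0.42, 0.50 and 0.55 on arrays 1 to 4, a 2.27-fold range (2.34-fold with each array scaled to its median). Arrays 3 and 4 were thus high and arrays 1 and 2 low. The SD over arrays of each SELENOP probe lay between percentile 97.6 and 99.4 of all fitted probes. This measure did not enter the choice of the genes but was taken after the data were seen, and with 1 value per array it has no replicate error.

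The other members varied less. GPX1 had a 1.49-fold range over its 2 probes with all arrays, PRDX6 1.40-fold, CAT 1.39-fold, GPX4 1.35-fold, HMOX1 1.30-fold and TXN 1.25-fold. On array 3 the levels of SELENOP, GPX1, GPX4, CAT and PRDX6 were all above their means (0.18 to 0.50), and on array 2 all were below (-0.42 to -0.05). TXN and HMOX1 were highest on array 1, with 0.13 and 0.15, and lowest on array 4, with -0.19 and -0.23.

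**Figure D4:**
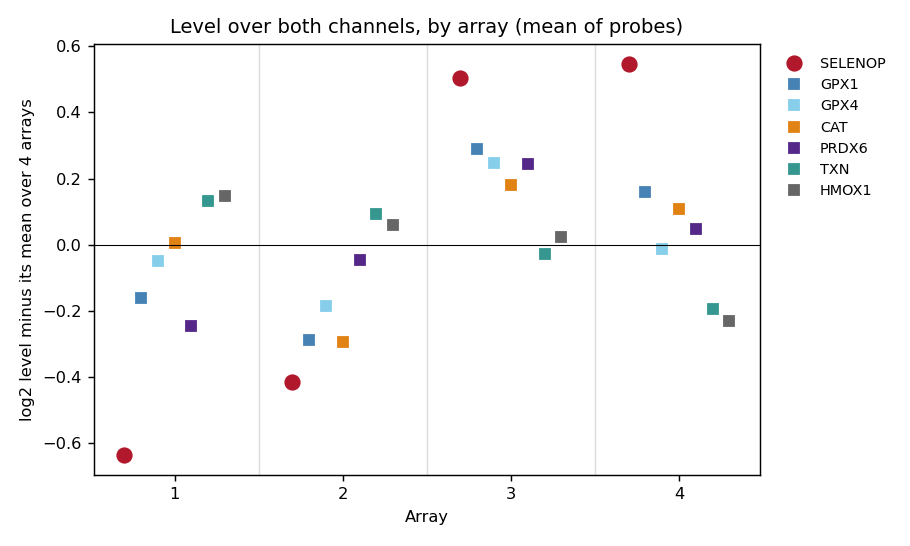
Level of each gene over both channels (y axis, log2, minus its mean over 4 arrays, mean of probes) on arrays 1 to 4 (x axis). SELENOP runs from -0.64 on array 1 to 0.55 on array 4, and the other 6 genes stay between -0.29 and 0.29.

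Cell-type markers also differed in level between the arrays. The endothelial genes PECAM1 and CDH5 ran opposite to SELENOP, with a mean of 0.90, 0.18, -0.42 and -0.66 on arrays 1 to 4. The 2 macrophage markers had 0.11, -0.40, 0.02 and 0.28, and DCN stayed between -0.11 and 0.05. Among the hormone genes PRL had 0.52, 0.40, -0.28 and -0.64 and FSHB -0.16, -1.15, 0.95 and 0.36. The 2 folliculostellate markers went different ways: SOX2 was low and high on the same arrays as SELENOP, with -0.19, -0.37, 0.24 and 0.32, and ANXA1 had 0.29, 0.07, -0.05 and -0.31. SOX2 was not the only such marker. The macrophage marker CD14 had -0.09, -0.19, 0.07 and 0.21, and the hormone gene TSHB had -0.08, -0.22, 0.29 and 0.004. The other macrophage marker, AIF1, had 0.30, -0.62, -0.02 and 0.34. Whether the make-up of the cultures had a part in the SELENOP levels was not tested.

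Other genes of the redox system were taken from 7 lists of 151 names in all, of which 52 genes had a fitted probe. None of the 52 passed the treatment test (0 at an adjusted p under 0.05 by limma, 1 at an unadjusted p under 0.05, beside 2.77% of all probes), 30 were above and 22 below 0, and their median was 0.01. Among 8 genes of the NRF2 pathway, 7 were above 0 at the brightest probe (median 0.04), beside 53.6% of all named genes. EPHX1, an epoxide hydrolase, had 0.12 and KEAP1, the inhibitor of NRF2, had 0.02. NQO1, a quinone reductase and classical NRF2 target, had 0.006 (1 of 3 probes above 0, mean -0.03). AKR1B1 of the same list had 0.008 (1 of 2 probes above 0, mean -0.008). Over the 9 genes of heme and iron handling the median was -0.007, and SLC11A2, an iron transporter, had -0.13. Of 8 other genes of selenium handling and selenoproteins, 2 were above 0 (median -0.03), with SELENOF at 0.09, while SELENOT, SELENOS and SELENOM had -0.05, -0.06 and -0.04.

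In the glutathione list 4 of 7 genes were above 0 (median 0.05), with GPX3, the plasma glutathione peroxidase, at -0.05 and MGST1, a microsomal glutathione transferase, at 0.06. The thioredoxin and peroxiredoxin list had 3 of 5 above 0 (median 0.01). TXNRD1, the reductase of thioredoxin and a selenoenzyme, had -0.09 (3 of 3 probes below 0). PRDX5 had 0.10 (1 of 2 probes above 0, mean 0.04) and TXNIP, which binds thioredoxin, 0.01 (2 of 7 probes above 0, mean -0.02). MSRB1, a methionine sulfoxide reductase, had -0.02 (1 of 2 probes above 0, mean 0.01). For superoxide and peroxide handling 4 of 6 were above 0 (median 0.04), with CCS, the copper chaperone of SOD1, at 0.02. For the production of reactive oxygen 6 of 9 were above 0 (median 0.03), with CYBA, a subunit of NADPH oxidase, at 0.11 and PTGS2 at -0.22, the gene with the unadjusted p under 0.05. With median centring 14 of the 22 genes below 0 lay above it, among them GPX3, TXNRD1, MSRB1, SELENOT and SELENOS, and 0 of the 30 above 0 lay below it.

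**Figure D5:**
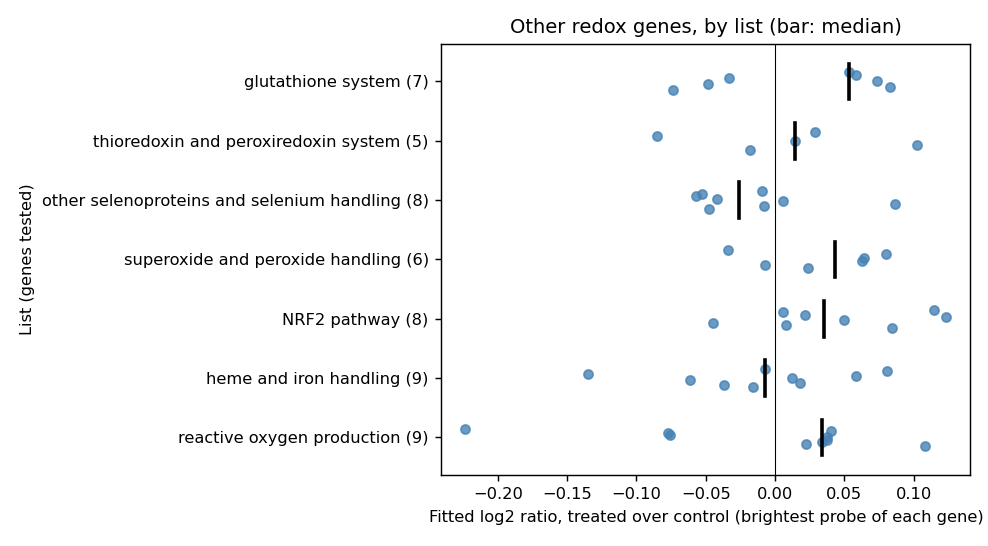
Fitted log2 ratio of treated over control cells (x axis) for the 52 other redox genes by list (y axis, with the number of genes fitted); points are the brightest probe of each gene and bars the list medians. The points lie between -0.22 and 0.12, and the medians between -0.03 and 0.05.

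The 5 named genes whose ratios on the 4 arrays were nearest to those of SELENOP, by root mean square difference over 1847 other genes, were MYH7 (0.18), THBD (0.21), MMP1 (0.25), C6 (0.25) and ACADL (0.26). Each was high on array 2, with log2 ratios there from 0.57 to 1.02, as the measure requires. The difference from SELENOP was 0.50 for HMOX1, 0.51 for CAT, 0.52 for TXN and 0.56 for GPX4, beside a median of 0.57 over all genes, which put HMOX1 at rank 392 and CAT at rank 439 from the nearest. GPX1 and PRDX6 were not compared, as their brightest probes had values on 3 arrays only.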

How the data were processed

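Scanner files of 4 two-colour arrays (design 026440, Agilent Feature Extraction 10.7.3.1, per the file headers) were used. Per the file headers, each spot has intensity values on a linear scale and the scanner's log10 ratio. Among the deposited data is also a table of log2 ratios for the probes; these lay within 0.01 of the scanner's processed signals for 99.99% of probes on each array, with medians of -0.04, 0.08, 0.04 and -0.05. Median foreground was corrected with normexp (offset 50) and loess within arrays. Control spots, outliers and spots flagged for uneven local background (939 to 1350 of 43803 per array) were left out. The offset draws ratios of dim probes towards 0. Fitted were probes with 3 or more values that were well above background on 3 or more arrays, in the treated channel or else in the control channel: 25912 of 43603.

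The model (limma 3.58.1, R 4.3.3) had a dye and a treatment term, moderated by eBayes and two-sided, and was tested on simulated data. Treated and control RNA are paired by sharing an array. Gene names came by unversioned accession from RefSeq annotation of Sscrofa11.1, used for names only, and 5578 probes matched. The files used here hold no probe sequences. The members and lists were chosen with earlier results of these data known. Named are all members, the 8 measured of 23 redox genes listed by function, list genes chosen after their values were seen, and the 5 genes nearest SELENOP. Signals are in arbitrary units and are not scaled between arrays. The number of arrays limits the precision.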

Additional observations from a re-analysis of the deposited data

Results flagged for a closer look

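Of 41 items examined (33 member probes with 4 values and 8 lists), 5 had a single distant array, which chance gives in about 1 of 20 independent items. The probes of a gene share the RNA of each array and the genes were chosen with these ratios in view, so nothing is read from the count of 5. Array 2 was the distant one for 4 of them. For SELENOP probe A_72_P560239 the log2 ratio was 0.79 on array 2 and 0.02 to 0.10 on the others. SELENOP probe A_72_P656110 had 0.56 on array 2 and -0.15 to -0.03 elsewhere. SELENOP probe A_72_P581752 had 0.62 on array 2 and -0.09 to -0.06 elsewhere. CAT probe A_72_P579607 had 0.53 on array 2 and -0.23 to -0.13 elsewhere. The 1 item with another distant array was GPX1 probe A_72_P689751, with 0.22 on array 4 and -0.12 to -0.07 on the others. These values are not corrected for dye.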

How the results depend on the processing

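The count of 0 probes called for treatment stayed 0 in the planned settings with 4 arrays and the channel labels. Under the labelling protocol's reading of the dyes it was 2331. With array 1, 2, 3 or 4 left out it was 0, 724, 1 and 832, where the lone array of a dye orientation is assumed to vary like the others. The count of 1608 for the dye term was 845 with normexp fitted on all spots, 32 with the scanner's log ratio, 59 with the deposited log2 ratios, 0 with median centring, and 56, 6151, 94 and 5666 without array 1, 2, 3 or 4. The brightest SELENOP probe had 0.09 to 0.31 over the settings with 4 arrays and the channel labels, and -0.01 to 0.51 with 1 array left out. The median over the 7 members ran from -0.02 to 0.06, and from -0.02 to 0.002 with 1 array left out. Keeping spots of uneven background, except those with a local background over 10 times the array's median, was added after the data were seen and gave 0.25 for SELENOP. The cause of these differences was not tested.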
